A study of Mus musculus with 9 samples.

Results

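Interferon-stimulated genes are transcribed when a cell senses interferon, and many of their products block viruses and other intracellular microbes. A set of 33 such genes was read here in endothelial RNA of the mouse thoracic aorta, in mice with deletion of 3 MEF2 transcription factors and in their controls. The genes were chosen by symbol, as widely used interferon-stimulated genes, with earlier results of these data known. Of the 33 symbols, 30 had a transcript cluster of their own among the 30142 genes named on the array, and 25 were bright enough to be tested, among 16403 tested genes in all. Ifi44 was not found in the table of names used, and Gbp5 and Gbp6 lay on clusters that name several genes, so these 3 have no value here.

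ACDiEKO mice carried Cdh5-CreERT2(+), a tamoxifen-activated Cre recombinase under the promoter of the endothelial cadherin gene, together with f/f (floxed) alleles of Mef2a, of Mef2c and of Mef2d, the genes for these factors. Control mice were littermates with Cdh5-CreERT2(-) and the same 3 floxed alleles, and they received the same tamoxifen. An effect of the recombinase itself therefore cannot be told apart from that of the deletion. All mice were female and 10 weeks old at tamoxifen, which was given in 5 daily injections. The sample protocols place the harvest at 14 days after the first injection and the series text at 7 days, and the time is not settled here. Lysis reagent was flushed through the lumen of single aortas, and 5 ng of RNA went onto each of 9 Clariom D whole-transcriptome arrays, 5 ACDiEKO and 4 control, with 1 aorta per array.

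In textbook outline, type I and type III interferons signal through JAK kinases to a complex that holds STAT2 and IRF9 and binds the interferon-stimulated response element (ISRE) in the promoters of responding genes. Interferon gamma signals through JAK kinases to promoters that carry the gamma-activated sequence (GAS). Endothelial cells carry receptors for both kinds of interferon and respond to both, and guanylate-binding proteins (GBPs) are among the genes most responsive to interferon gamma.

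The following stretches of promoter are shown because their genes moved in opposite directions, or lie beside one that moved. Each is the run of bases before the RefSeq transcription start, 5′ to 3′ in the direction of the gene, from GRCm38.p6. Capitals mark every match on either strand to the ISRE letters (GAAA, any 2 bases, GAAA) or the GAS letters (TTC, any 3 bases, GAA). The windows lie at chr8:71537473-71537722 on the minus strand (Bst2), chr19:34550444-34550693 on the plus strand (Ifit2), chr19:34583279-34583528 on the plus strand (Ifit3) and chr2:62646256-62646505 on the minus strand (Ifih1).
Bst2: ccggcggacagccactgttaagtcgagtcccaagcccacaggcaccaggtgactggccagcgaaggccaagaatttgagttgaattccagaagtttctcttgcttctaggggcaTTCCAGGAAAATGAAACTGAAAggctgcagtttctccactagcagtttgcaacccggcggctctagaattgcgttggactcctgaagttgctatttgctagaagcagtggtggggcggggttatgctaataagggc
Ifit2: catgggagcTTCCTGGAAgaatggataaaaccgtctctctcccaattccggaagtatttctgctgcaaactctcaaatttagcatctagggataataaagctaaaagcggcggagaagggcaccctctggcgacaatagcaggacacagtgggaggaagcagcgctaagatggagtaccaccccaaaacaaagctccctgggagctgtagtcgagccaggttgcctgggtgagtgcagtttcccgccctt
Ifit3: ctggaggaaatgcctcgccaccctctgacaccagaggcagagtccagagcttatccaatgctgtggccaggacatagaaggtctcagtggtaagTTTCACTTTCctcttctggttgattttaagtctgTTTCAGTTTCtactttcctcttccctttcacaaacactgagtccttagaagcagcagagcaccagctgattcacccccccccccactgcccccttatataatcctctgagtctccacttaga
Ifih1: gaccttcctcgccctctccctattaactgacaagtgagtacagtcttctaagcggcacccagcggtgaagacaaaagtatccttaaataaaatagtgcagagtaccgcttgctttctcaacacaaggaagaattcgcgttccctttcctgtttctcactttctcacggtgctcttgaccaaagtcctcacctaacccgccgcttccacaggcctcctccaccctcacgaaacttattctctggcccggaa
Bst2 and Ifit2 were higher in ACDiEKO, Ifih1 was lower, and Ifit3 is shown as the neighbour of Ifit2 on the same chromosome, chosen after its values were seen. The Bst2 stretch holds 2 ISRE matches that overlap each other, at bases -130 to -121 and -124 to -115 before the start, and a GAS match at -136 to -128 that overlaps the first of them. The Ifit3 stretch holds 2 ISRE matches on the opposite strand, at -156 to -147 and at -122 to -113. In Ifit2 there is a GAS match at -241 to -233, and the window of its other annotated start holds neither motif. The Ifih1 stretch holds no match, and an ISRE match of that gene lies just after the start, at bases 33 to 42, outside the bases printed.

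Such matches were common in the promoters of the whole set. RefSeq windows of 250 bases before and 50 after the start were found for 22 of the 33 symbols. The ISRE letters occurred in 14 of these 22 genes and in 53.8% of their 26 windows. Among 32851 windows of genes outside chromosome 18, which was left out of the search, the share was 3.44%. GAS letters occurred in 6 of the 22 genes and in 23.1% of their windows, against 8.3% of those 32851 windows. A match describes the letters of the window and is not evidence that a factor binds there.

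The values are deposited log2 intensities, and a difference is the ACDiEKO mean minus the control mean in log2 units. They are not turned into folds, because the range of the table, which runs to 19.3, shows a scaling beyond the scanner's range that the sources used here do not describe. ACDiEKO replicates 1 and 2 were nearly identical: the robust SD of their difference was 0.0707 log2 units, and 15 further within-group pairs gave 0.268 to 0.401. They were averaged and counted as 1 sample, which left 4 ACDiEKO and 4 control samples. Their labels give them different animal numbers. Medians over all clusters lay between 6.13 and 6.15 in ACDiEKO arrays and between 6.17 and 6.23 in control arrays.

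The floxed genes themselves were read at 13.61 to 13.96 in ACDiEKO and 13.55 to 13.76 in controls for Mef2a, and at 9.86 to 10.11 in ACDiEKO and 9.78 to 9.99 in controls for Mef2c. Mef2d was read at 10.42 to 10.68 in ACDiEKO and 10.15 to 10.38 in controls. None of the 3 passed the test (limma, adjusted p = 0.441, 0.66 and 0.111). Whether these whole-gene clusters cover the deleted exons is not given in the sources used here, so they do not check the genotypes.

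Endothelial markers had a mean over 11 genes of 12.53 to 13.09 in ACDiEKO and 12.78 to 13.17 in controls. Of these 11, 2 were called higher (Emcn and Kdr) and 3 lower (Cldn5, Tek and Pecam1), and Cdh5, whose promoter drives the recombinase, was at 15.62 to 16.06 in ACDiEKO and 15.36 to 15.82 in controls. Smooth muscle markers were mostly higher in ACDiEKO: 8 of 12 tested genes passed as higher and 0 as lower. The mean of 14 genes was 9.07 to 9.88 in ACDiEKO against 7.94 to 8.75 in controls. Differences were positive in 9 of the 12 and negative in Cnn1 (-0.27), Notch3 (-0.08) and Myh11 (-0.04), which did not pass. For Notch3 every ACDiEKO sample lay below every control sample. Over all tested genes 8.92% were called higher and 7.33% lower. Leukocyte markers passed in 0 of 18 tested genes by limma (1 was higher at an unadjusted p under 0.05), and their mean over 23 genes was 6.64 to 8.54 in ACDiEKO against 6.42 to 6.94 in controls. The top of that ACDiEKO range is replicate 5, which stood apart, and the others reached 7.07. Fibroblast markers averaged 8.98 to 9.73 in ACDiEKO and 9.43 to 9.71 in controls over 8 genes, of which 1, Pi16, was called lower and 0 higher. The part of these marker differences in the values below was not tested. In RNA from a whole tissue layer, fewer cells of a type and less RNA per cell cannot be told apart.

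The interferon-stimulated genes did not move as a block. Of the 25 tested, 2 rose in ACDiEKO (Bst2 and Ifit2), 3 fell (Gbp4, Ifih1 and Parp14) and 20 did not pass at a limma Benjamini-Hochberg adjusted p under 0.05. Over all tested genes 16.3% passed, 8.92% higher and 7.33% lower, so 5 of 25 is close to the share among all genes. The split of all calls moved with the scaling: 54.9% of calls were higher with the values as deposited, 65.7% after median centring and 65.5% after quantile normalization. The median difference of the 25 was -0.29, against -0.03 over all genes. Of the 25 differences, 18 were negative, against 8966 of the 16403 over all tested genes. After median centring the members' median was -0.236, and after quantile normalization it was -0.219. At an unadjusted p under 0.05, 10 members were lower and 2 higher, together 12 of 25, against 32.7% of all genes in either direction.

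**Figure D1:**
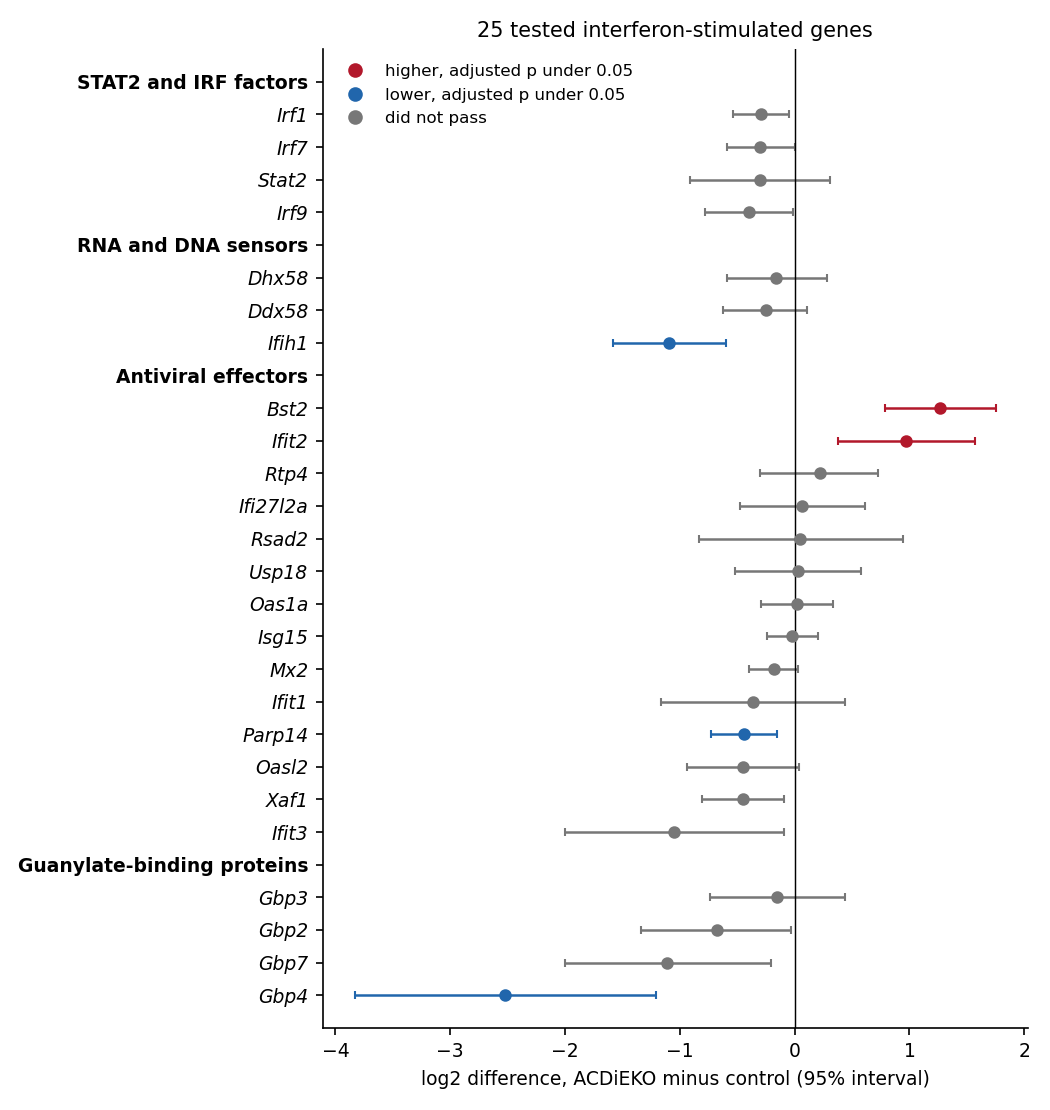
Differences of the 25 tested interferon-stimulated genes, as ACDiEKO minus control in log2 units on the horizontal axis, with 95% intervals from limma. Red marks genes that rose, blue those that fell and grey those that did not pass; Gbp4 lies farthest to the left at -2.52 and Bst2 farthest to the right at 1.27.

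By role, the spread was wide. The signalling members STAT2 and the IRFs had 0 of 4 genes past the threshold by limma, 3 of them lower at an unadjusted p under 0.05, and a median difference of -0.30. Among the sensors of viral RNA and DNA, 1 of 3 tested genes fell, with a median of -0.25. The antiviral effectors had 2 higher and 1 lower of 14, with a median of 0.00. The 4 GBPs had 1 lower, with a median of -0.89. Over all tested genes 8.92% were called higher and 7.33% lower, and 32.7% had an unadjusted p under 0.05 in either direction. Each role holds few genes, and differences between roles were not tested.

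Bst2 encodes tetherin, a membrane protein that holds budding virus particles at the cell surface. Its values were 14.28 (replicates 1 and 2), 13.73, 14.18 and 14.29 in ACDiEKO samples, against 13.18, 12.29, 12.96 and 12.98 in control samples. Every ACDiEKO sample lay above every control sample. The means were 14.12 ± 0.26 in ACDiEKO and 12.85 ± 0.39 in controls (SD, n = 4 each), a difference of 1.27 (SE 0.21, 95% interval 0.79 to 1.75, limma adjusted p = 0.00623). Bst2 passed under all 19 alternative settings tried, at 1.08 to 1.40 (adjusted p 0.00176 to 0.0469).

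Ifit2 encodes an antiviral protein with tetratricopeptide repeats that acts on viral RNA translation. Its values were 10.14, 9.39, 10.03 and 9.77 in ACDiEKO samples and 8.96, 8.15, 9.14 and 9.18 in control samples. The groups did not overlap, and the closest samples were ACDiEKO replicate 3 and control replicate 4. The means were 9.83 ± 0.34 in ACDiEKO and 8.86 ± 0.48 in controls (SD, n = 4 each), a difference of 0.97 (SE 0.26, limma adjusted p = 0.0376). Leaving out control replicate 2 gave an adjusted p of 0.0434 and ACDiEKO replicate 3 one of 0.0319, and the call was kept. Leaving out control replicate 1, 3 or 4 gave 0.0689, 0.0548 and 0.0522, and the call was lost. It was also lost, at 0.103 without ACDiEKO replicate 4, 0.0663 without ACDiEKO replicate 5 and 0.0953 without both near-identical arrays. The difference stayed between 0.74 and 1.27 under all settings.

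The neighbours of Ifit2 did not pass the test. Ifit3, a relative that is expressed from the same gene cluster, was at 8.41, 8.20, 8.31 and 7.78 in ACDiEKO samples and at 8.49, 8.42, 10.26 and 9.72 in control samples. All 4 ACDiEKO samples lay below all 4 control samples, but control replicates 1 and 2 lay close above the highest ACDiEKO sample, and control replicates 3 and 4 well above. The difference was -1.05 (SE 0.41) and did not pass (limma adjusted p = 0.123). Ifit1, which binds viral RNA by its cap structure, spanned 6.83 to 7.65 in ACDiEKO and 6.61 to 8.33 in controls, a difference of -0.36 that did not pass (limma adjusted p = 0.511). Whether the response of Ifit2 differed from those of its neighbours was not tested.

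Ifih1 encodes MDA5, a cytosolic sensor of long double-stranded RNA. It had 9.31, 8.94, 8.95 and 8.76 in ACDiEKO samples, against 9.80, 9.65, 10.56 and 10.29 in control samples. The groups did not overlap. With means of 8.99 ± 0.23 in ACDiEKO and 10.08 ± 0.42 in controls (SD, n = 4 each), the difference was -1.09 (SE 0.21, 95% interval -1.58 to -0.60, limma adjusted p = 0.0123). It passed with each sample left out in turn, and it was -0.74 (adjusted p = 0.0541) when control replicates 3 and 4 were both left out.

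Ddx58, which encodes the RNA sensor RIG-I, spanned 9.74 to 10.05 in ACDiEKO and 9.99 to 10.65 in controls. Dhx58, which encodes the related regulator LGP2, spanned 6.78 to 7.03 in ACDiEKO and 6.69 to 7.64 in controls. Their differences of -0.25 and -0.16 did not pass (limma adjusted p = 0.31 and 0.602). Zbp1, a sensor of Z-form nucleic acid, was too dim to be tested, at 6.06 to 6.32 in ACDiEKO and 6.0 to 6.14 in controls.

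Parp14 encodes an ADP-ribosyltransferase. It was at 9.36, 9.29, 9.06 and 8.93 in ACDiEKO samples and at 9.55, 9.48, 9.86 and 9.52 in control samples. The groups did not overlap, but the gap between them was small. The means were 9.16 ± 0.20 in ACDiEKO and 9.60 ± 0.17 in controls (SD, n = 4 each), a difference of -0.44 (SE 0.13) at a limma adjusted p of 0.0474, just under the threshold. The call was lost when any 1 of control replicates 1, 2, 3 or 4 was left out (adjusted p = 0.0799, 0.0659, 0.0944 and 0.0816), and likewise without ACDiEKO replicate 3, 4 or 5 (0.0622, 0.121 and 0.09). Median centring gave 0.0877 and quantile normalization 0.0536.

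**Figure D2:**
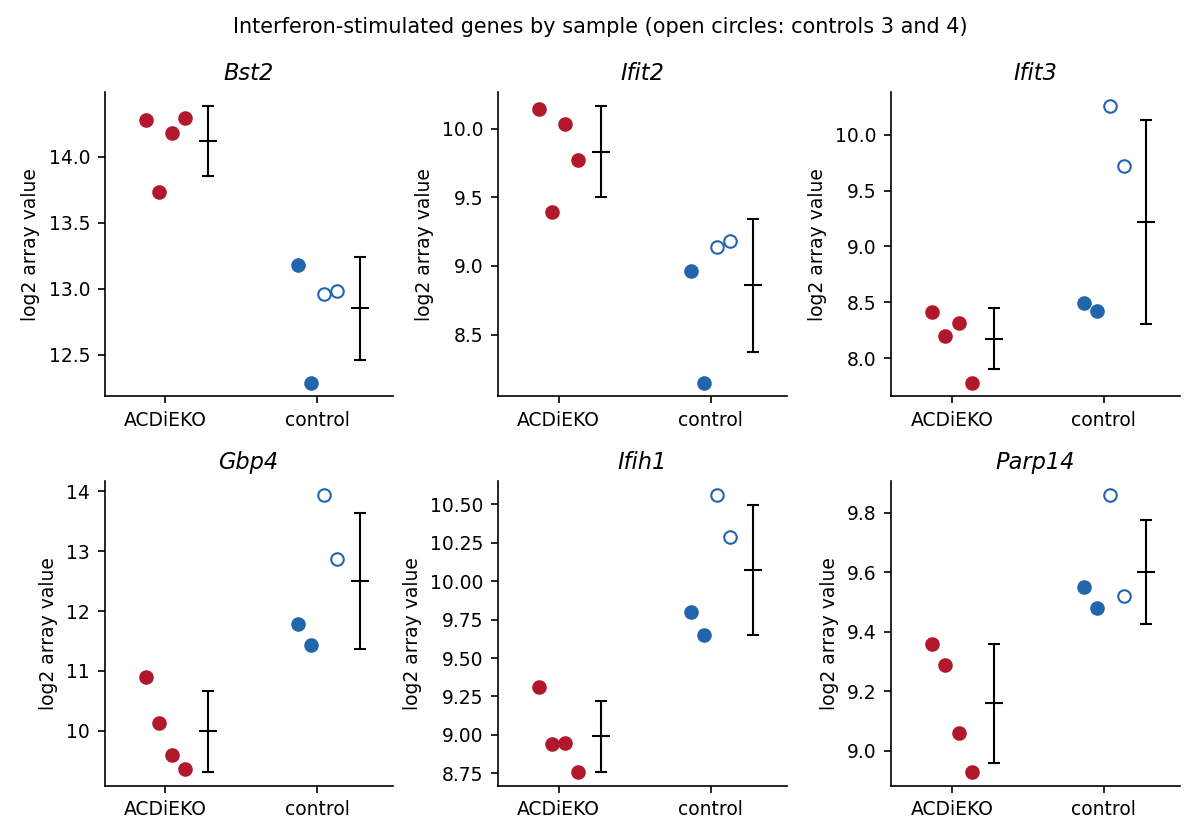
Deposited log2 values of 6 members, 1 point per sample, with ACDiEKO on the left and control on the right of each panel; black bars give the mean ± SD (n = 4 each) and open circles mark control replicates 3 and 4. Bst2 and Ifit2 are higher in every ACDiEKO sample, and Gbp4 and Ifit3 have their highest values in control replicates 3 and 4.

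The other 9 tested antiviral effectors, besides Ifit1 and Ifit3, did not pass. Isg15, the ubiquitin-like modifier, spanned 7.39 to 7.80 in ACDiEKO and 7.58 to 7.69 in controls. Usp18, the protease that removes ISG15 and damps receptor signalling, spanned 6.34 to 7.02 in ACDiEKO and 6.08 to 7.11 in controls. Rsad2, which encodes viperin, spanned 7.74 to 8.73 in ACDiEKO and 7.41 to 9.23 in controls. All 3 differences lay between -0.02 and 0.05. Among the family of 2′-5′ oligoadenylate synthetases, which activate RNase L, Oas1a spanned 8.07 to 8.44 in ACDiEKO and 8.04 to 8.49 in controls. Oasl2, a relative of these enzymes, spanned 7.86 to 8.23 in ACDiEKO and 8.08 to 9.02 in controls, a difference of -0.45 (limma adjusted p = 0.188). Xaf1, a pro-apoptotic factor, spanned 9.44 to 10.15 in ACDiEKO and 10.06 to 10.39 in controls, a difference of -0.45 with the lowest adjusted p of these 9 (limma, 0.0873). Mx2, an antiviral GTPase, differed by -0.18 (limma adjusted p = 0.214), and Rtp4 and Ifi27l2a differed by 0.22 and 0.06 (0.535 and 0.879). Other effectors were too dim to be tested: Mx1, at 5.18 in each of the 4 ACDiEKO samples and 5.18 to 5.20 in controls, Oas2, at 5.77 to 5.93 in ACDiEKO and 5.47 to 5.77 in controls, Oas3, at 5.51 to 5.59 in ACDiEKO and 5.56 to 5.57 in controls, and Oasl1, at 5.64 to 5.93 in ACDiEKO and 5.71 to 5.74 in controls. Several members have 1 value repeated over many arrays, 7 of 9 for Mx1, 5 of 9 for Isg15 and 4 of 9 for Irf1, Irf7 and Dhx58. Brighter genes outside the set have such repeats too, 4 of 9 for Ifngr1 and 5 of 9 for Samhd1. Where values repeat, a small spread does not measure precision.

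Among the GBPs, interferon-induced GTPases that attack the membranes around intracellular microbes, Gbp4 had the largest fall of any member. Its values were 10.89, 10.13, 9.59 and 9.36 in ACDiEKO samples, against 11.78, 11.44, 13.94 and 12.87 in control samples. The groups did not overlap, and the control samples spread over a wider range than the ACDiEKO samples. The means were 9.99 ± 0.68 in ACDiEKO and 12.51 ± 1.13 in controls (SD, n = 4 each), a difference of -2.52 (SE 0.57, 95% interval -3.83 to -1.21, limma adjusted p = 0.0212). Leaving out control replicate 4 gave -2.40 (adjusted p = 0.0613), ACDiEKO replicate 4 gave -2.38 (0.0652) and ACDiEKO replicate 5 gave -2.31 (0.0502). Without control replicates 3 and 4 together it was -1.62 (0.0845).

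Gbp7 had 11.87, 10.99, 10.90 and 10.71 in ACDiEKO samples and 11.72, 11.65, 13.24 and 12.28 in control samples. The near-identical pair of ACDiEKO arrays lay inside the control range, and the difference of -1.11 (SE 0.39) did not pass (limma adjusted p = 0.0913). Gbp2 had 9.48, 9.16, 9.46 and 9.06 in ACDiEKO samples and 9.48, 9.43, 10.67 and 10.31 in control samples, a difference of -0.68 (SE 0.29, limma adjusted p = 0.14). For both genes, control replicates 1 and 2 lay within the ACDiEKO range. Gbp3 differed by -0.15 (limma adjusted p = 0.729).

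In RefSeq, mouse GBP genes lie in a block on chromosome 3, which holds Gbp5, Gbp7, Gbp3 and Gbp2 in that order, and in a block on chromosome 5, which holds Gbp8, Gbp9, Gbp4, Gbp10, Gbp6 and Gbp11. Gbp8, also on chromosome 5 and not a member of the set, was at 8.52, 7.87, 7.77 and 7.68 in ACDiEKO samples and at 9.36, 9.11, 10.45 and 10.12 in control samples, without overlap. Its difference was -1.80 (SE 0.32, limma adjusted p = 0.0085), and it passed with each sample left out in turn and without control replicates 3 and 4. Gbp9 and Gbp11, named after their values were seen, also fell, by 2.0 and 1.5 log2 units (limma adjusted p = 0.019 and 0.0338). Gbp9 was lost without control replicate 4 (0.0544) or ACDiEKO replicate 4 (0.0587). Gbp11 was lost without control replicate 3 or 4 (0.0612 and 0.085) and without ACDiEKO replicate 3, 4 or 5 (0.0611, 0.0956 and 0.0734). Without control replicates 3 and 4 together, Gbp9 was -1.46 (0.121) and Gbp11 -0.96 (0.16), and Gbp8, which kept its call, was -1.28 (0.0429). The difference between the chromosome blocks was not tested. These genes are close paralogs, and a probe that detects more than 1 of them would spread its signal over several.

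**Figure D3:**
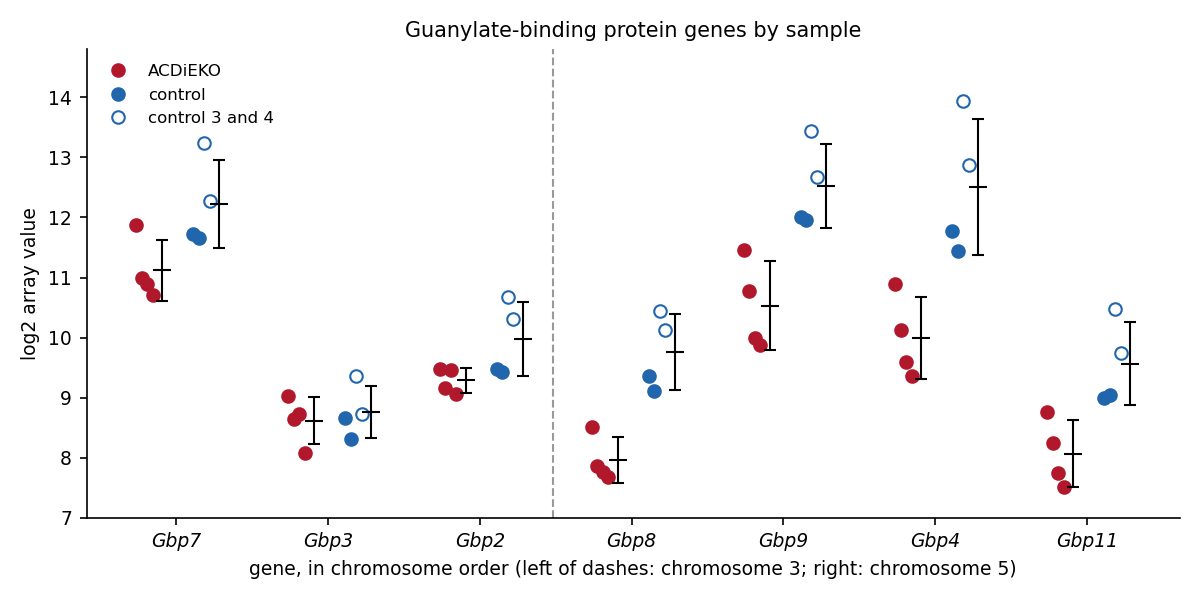
Deposited log2 values of guanylate-binding protein genes by sample, with ACDiEKO left of control for each gene, black bars for the mean ± SD (n = 4 each) and open circles for control replicates 3 and 4. Control replicate 3 is the highest sample of Gbp4 (13.94), Gbp7 (13.24), Gbp2 (10.67) and Gbp8 (10.45); levels of different genes are not compared.

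The signalling members had small differences in 1 direction, none past the threshold. Irf7, which amplifies type I interferon output, was at 6.48 to 6.77 in ACDiEKO and 6.77 to 7.28 in controls (difference -0.30, limma adjusted p = 0.15). Irf9, the DNA-binding subunit of the complex that recognises the ISRE, was at 8.44 to 8.75 in ACDiEKO and 8.73 to 9.40 in controls (-0.40, limma adjusted p = 0.146). Stat2 spanned 9.26 to 9.79 in ACDiEKO and 9.04 to 10.33 in controls (-0.30, limma adjusted p = 0.465). Irf1, a factor induced by interferon gamma, spanned 7.68 to 7.97 in ACDiEKO and 7.97 to 8.33 in controls (-0.29, limma adjusted p = 0.0977).

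Much of the spread among members lay between control samples. Control replicates 3 and 4 carry animal numbers apart from the unbroken run of numbers of all other mice, a split that the labels do not call a batch. Both lay above control replicates 1 and 2 in 17 of 25 members, 68%, against 21.7% of all tested genes. Control replicate 3 was the highest of all samples in 17 members, a count whose share over all genes was not computed. The mean over the 25 members was 8.49 to 8.88 in ACDiEKO samples, with control replicates 1, 2, 3 and 4 at 8.75, 8.56, 9.34 and 9.03. Control replicates 1 and 2 thus lay within the ACDiEKO range on this mean. No ACDiEKO mouse has a number near those of control replicates 3 and 4. The smooth muscle marker means also split the controls, at 8.75, 8.39, 7.94 and 8.05 in control replicates 1, 2, 3 and 4. Control replicates 3 and 4 both lay below 1 and 2 in 7 of 12 tested smooth muscle markers, against 3164 of the 16403 tested genes. Any link between this split and the members was not tested. Against control replicates 1 and 2 alone, 0 members passed as lower by limma and 1, Bst2, as higher. At an unadjusted p under 0.05 in that fit, 3 members were lower and 3 higher. The share over all genes at that cut was not computed. That fit called 1127 of the 16403 genes, against 2666 with all samples. ACDiEKO replicate 5, whose leukocyte markers were high, was the lowest ACDiEKO sample in 14 of the 25 members. It was also the lowest of all samples in the 3 that fell. The groups did not overlap in those 3, so the lowest sample had to be an ACDiEKO one. No share over all genes was computed for either count, and a link to the leukocyte markers was not tested. Without ACDiEKO replicate 5, 1 member passed as higher and 1 as lower. The same counts came without ACDiEKO replicate 4 and without control replicate 4.

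**Figure D4:**
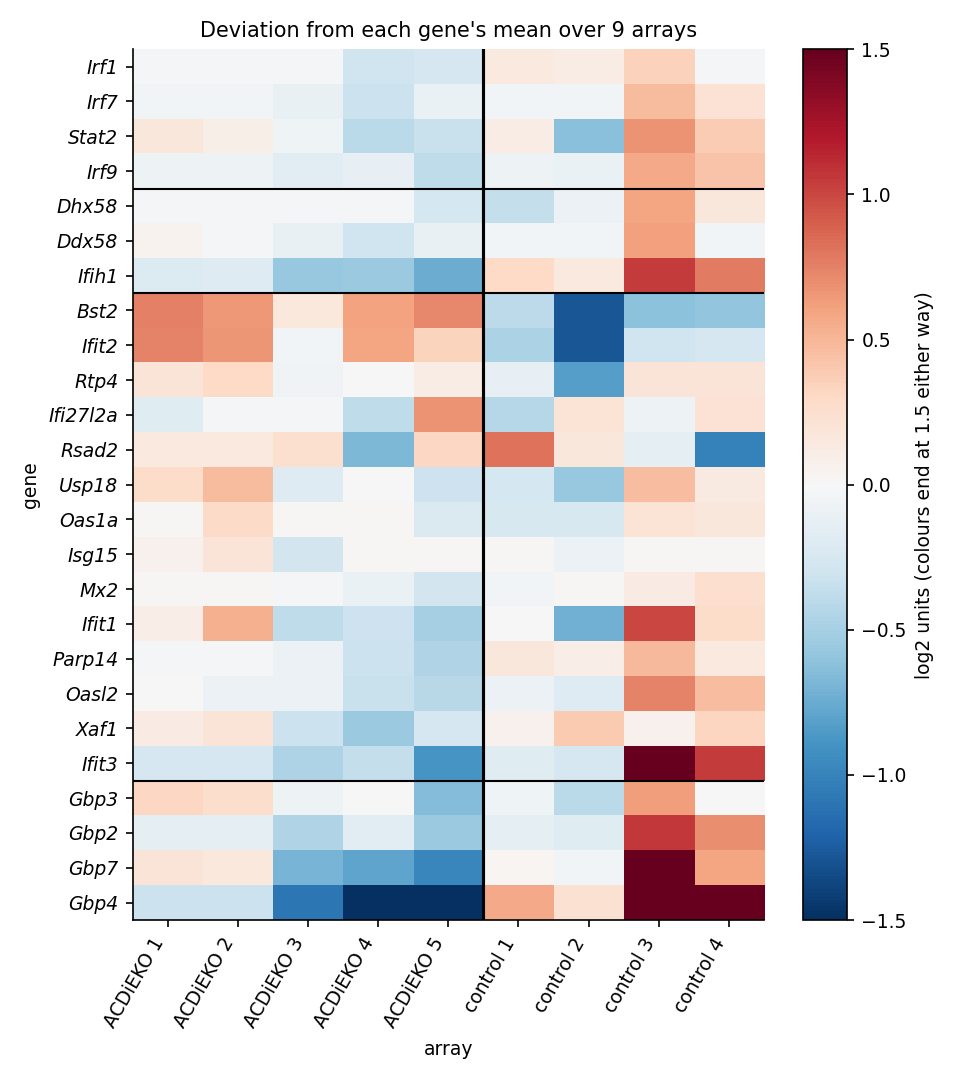
Deviation of each tested member from its own mean over the 9 arrays, in log2 units, with ACDiEKO arrays left of control arrays, genes in rows and the colour scale ending at 1.5 in either direction. Most members are high in control replicates 3 and 4, and Bst2 and Ifit2 are high in the ACDiEKO arrays.

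Steps before the interferon-stimulated genes were read in lists of ligands, receptors and sensors. Of 18 interferon ligand genes with a cluster of their own, 2 were bright enough to be tested, Ifnl2 and Ifnl3, and 0 passed by limma, with unadjusted p of 0.933 and 0.965. Ifnb1, the gene of interferon beta, was at 5.05 to 5.70 in ACDiEKO and 5.09 to 5.40 in controls, and Ifng at 4.46 in every ACDiEKO sample and 4.33 to 4.46 in controls. Both lie below the test's floor of 6.165, and the background features of the array had medians of 2.85 to 6.90, so no level of these ligands is claimed.

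Among 12 tested receptor and JAK-STAT genes, 2 rose and 1 fell, with a median difference of 0.16. Over all tested genes, 8.92% were called higher and 7.33% lower. Pias1, an inhibitor of STAT signalling, fell to 12.45, 12.62, 12.36 and 12.57 in ACDiEKO samples, against 13.13, 13.15, 13.08 and 13.12 in control samples (difference -0.62, SE 0.07, limma adjusted p = 0.00186). Ptpn2, a phosphatase that switches off JAK and STAT proteins, rose by 0.38 (SE 0.07, limma adjusted p = 0.0115), with means of 8.77 ± 0.08 in ACDiEKO and 8.38 ± 0.10 in controls (SD, n = 4 each). Both passed under all 19 alternatives.

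Ifngr2, the signalling chain of the interferon gamma receptor, rose to 9.27 ± 0.24 in ACDiEKO, against 8.59 ± 0.34 in controls (SD, n = 4 each; difference 0.69, SE 0.19, limma adjusted p = 0.0423). It did not pass without control replicate 1, 2 or 4 (0.0561, 0.0881 and 0.0664), without ACDiEKO replicate 3, 4 or 5 (0.0604, 0.0721 and 0.079) or without both near-identical arrays (0.0974), and it was 0.59 (0.10) without control replicates 3 and 4. The other receptor chains did not pass: Ifngr1 differed by 0.10 (limma adjusted p = 0.516), Ifnar2 by 0.22 (0.06) and Ifnar1 by 0.01 (0.963), and the sign of the last changed with the samples left out. Ifnar2 did pass after median centring (0.0372) and quantile normalization (0.0226).

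Of 18 other genes of nucleic acid sensing, 2 fell and 1, Cgas, was called higher, with a median of -0.09. The shares over all tested genes were 7.33% lower and 8.92% higher. Cgas, the cytosolic DNA sensor, was at 6.67, 6.52, 6.64 and 6.34 in ACDiEKO samples, against 5.90, 5.68, 5.96 and 5.94 in control samples, a difference of 0.67. It entered the test only through its ACDiEKO values, since all control samples lay below the floor of 6.165, and both groups lay within the range of the array's background features. Its values are therefore given as a description, with no test. Tlr3, the endosomal receptor for double-stranded RNA, fell to 10.88 ± 0.04 in ACDiEKO, against 11.47 ± 0.27 in controls (SD, n = 4 each; difference -0.58, SE 0.13, limma adjusted p = 0.0185; 0.0513 without ACDiEKO replicate 4). Trim25, a ubiquitin ligase that acts on RIG-I, fell to 10.32 ± 0.31 in ACDiEKO, against 11.08 ± 0.25 in controls (SD, n = 4 each; difference -0.76, SE 0.18, limma adjusted p = 0.0256). Its adjusted p was 0.0563 when control replicate 2 was left out and 0.0551 when control replicate 3 was. Without control replicates 3 and 4 together, Trim25 was -0.65 (0.123) and Tlr3 -0.44 (0.0524).

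**Figure D5:**
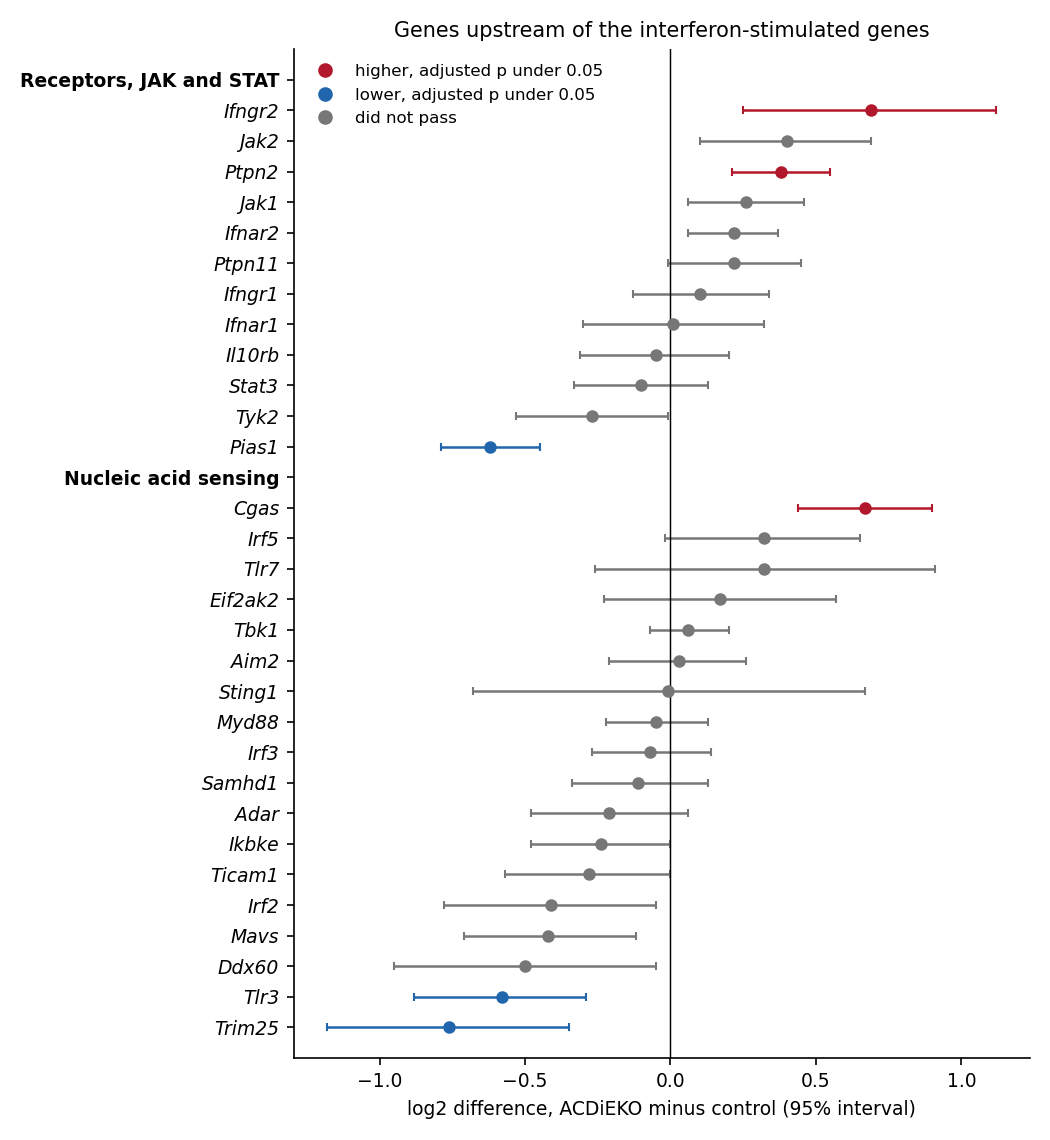
Differences, as ACDiEKO minus control in log2 units with 95% intervals from limma, for tested genes of interferon receptors and JAK-STAT signalling and of nucleic acid sensing. Red marks genes called higher (Ifngr2 at 0.69, Ptpn2 at 0.38, and Cgas at 0.67, whose values in both groups lie within the range of the background features), blue those that fell (Trim25 at -0.76, Pias1 at -0.62, Tlr3 at -0.58) and grey those that did not pass.

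A further list of 55 interferon-stimulated genes outside the 33 had 43 tested, of which 11 fell and 1 rose, with a median of -0.15. All tested genes were called lower in 7.33% and higher in 8.92%. The list, like the set, was chosen with earlier results of these data known. Its genes that fell include the chromosome 5 paralogs Gbp8, Gbp9 and Gbp11, which may share probe signal. Control replicates 3 and 4 both lay above 1 and 2 in 20 of the 43, 46.5%, against 21.7% of all tested genes. Any link between this split and the falls was not tested. Sp100, a nuclear body protein, fell to 11.88, 11.68, 11.58 and 11.42 in ACDiEKO samples, against 12.63, 12.53, 13.16 and 13.12 in control samples (difference -1.22, SE 0.17, limma adjusted p = 0.0034). No ACDiEKO sample reached a control sample, and Sp100 passed under all 19 alternatives. Slfn9, of the Schlafen family, was the gene that rose, at 8.94, 8.22, 8.82 and 8.05 in ACDiEKO samples and 6.92, 7.25, 7.28 and 7.50 in control samples (difference 1.27, SE 0.22, limma adjusted p = 0.00766). Herc6, a ligase for ISG15 in mice, fell by 0.61 (SE 0.11, limma adjusted p = 0.00917), and Tor3a, of the torsin ATPase family, fell by 0.44 (SE 0.08, limma adjusted p = 0.00941). Without control replicates 3 and 4 these were -0.46 (0.0703) and -0.38 (0.0766).

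Of 7 tested immunity-related GTPases, a mouse family that acts together with the GBPs on vacuoles holding microbes, 1 passed as lower and 3 more were lower only at an unadjusted p under 0.05, with a median of -0.99. Among all tested genes, 7.33% passed as lower, and 32.7% had an unadjusted p under 0.05 in either direction. Irgm2, a regulator within the family, was at 6.57, 6.62, 6.4 and 6.32 in ACDiEKO samples and at 7.16, 6.83, 7.23 and 7.19 in control samples, without overlap. The difference was -0.63 (SE 0.11, limma adjusted p = 0.00872), and it was -0.52 (0.0826) without control replicates 3 and 4. Every ACDiEKO sample and control replicate 2 lay within the range of the array's background features, whose medians reached 6.90.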

How the data were processed

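RNA of 9 single thoracic aortas was measured on Clariom D arrays. The authors deposited log2 values made with RMA, per the submitters' processing notes. The genome build and annotation of the array are not given in the sources used here. After 6732 array controls were left out, 65956 clusters remained, and 30604 of them had 1 symbol in the table of names used (2146 had several, 827 symbols were updated through gene IDs). Symbols with several clusters were read from the brightest, for 30142 genes. Genes entered the test if 4 or more arrays exceeded 6.165, the table's median. The test was that of limma (version 3.58.1, in R version 4.3.3; lmFit and eBayes, ACDiEKO minus control, two-sided, Benjamini-Hochberg threshold 0.05 over 16403 genes), and all adjusted p-values come from it. In 5 runs on simulated data with 200 changed genes, 80.4% of changes of 1 log2 unit and 98.2% of changes of 2 were recovered, with 5.01% false calls. The simulated noise was normal and independent for each gene and sample. These rates therefore do not cover shifts that samples share across many genes. The number of arrays limits the precision.

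The 33 genes and all lists were chosen with earlier results of these data known. By rule, values in every sample were given for members that passed, for members whose groups did not overlap and for the 2 members with the largest other differences. Of each other list, up to 5 genes with the smallest p among those that passed were named, plus receptors and ligands fixed by name. Of the 2 controls titled number 3, one is called control replicate 4 here. Deviations of same-numbered arrays of the groups had correlations of -0.0049, -0.145, 0.0353 and 0.0413. Arrays with different numbers were not compared, so this does not settle whether the numbers pair them. The main test did not treat them as pairs. Alternatives were no filter and a stricter one (75th percentile, 8.417), quantile normalization, median centring, an intensity trend with robust variance, averaging clusters, all 9 arrays as samples, a replicate block, and leaving out arrays. Promoter windows come from RefSeq GRCm38.p6, with those on chromosome 18 left out. Figures were drawn with matplotlib 3.10.9.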

Additional observations from a re-analysis of the deposited data

Results flagged for a closer look

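In 4 of the 50 sets of 4 samples examined (25 members in each genotype), 1 sample stood far from the other 3 relative to the range of its group, and chance alone marks about 1 in 20 such sets. Ddx58 was at 10.65 in control replicate 3, with the other control samples at 9.99 to 10.00. Dhx58 was at 6.78 in ACDiEKO replicate 5, with the others at 7.03. Rsad2 was at 7.74 in ACDiEKO replicate 4, with the others at 8.57 to 8.73. Isg15 was at 7.58 in control replicate 2, with the others at 7.69. In Dhx58 and Isg15 the other samples share 1 value.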

How the results depend on the processing

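The reported limma counts were 2 members higher and 3 lower in ACDiEKO. With the replicate number as a block (all 9 arrays) they were 1 and 0, and without control replicates 3 and 4 also 1 and 0. At an unadjusted p under 0.05, the block fit had 2 members lower and 2 higher. The fit without control replicates 3 and 4 had 3 lower and 3 higher. No share over all genes was computed at that cut in these fits. With no filter on dim genes (30 members tested) the counts of members that passed were 1 higher and 1 lower. Without both near-identical arrays they were 1 and 4, the fourth being Xaf1. Leaving out 1 replicate at a time gave 1 to 2 higher and 1 to 3 lower. The number of genes called among all was 1127 without control replicates 3 and 4, and 1680 to 2701 with 1 replicate left out, lowest without ACDiEKO replicate 4. Fewer samples or more genes tested enter these fits by construction; otherwise the cause was not tested. Trim25 was also lost with no filter (0.0593). Over 19 alternatives Bst2 passed in all, Ifih1 in 17, Gbp4 in 13, Ifit2 in 10 and Parp14 in 6, each with its direction kept. Ifnar1, at 0.01, changed sign: it was -0.0047 without both near-identical arrays and -0.07 to 0.14 with 1 replicate left out. With the replicate block, Bst2 was 1.23 (limma adjusted p = 0.0302), Ifit2 1.04 (0.109), Ifih1 -0.84 (0.0956), Gbp4 -1.75 (0.138) and Parp14 -0.25 (0.225). Of the other genes, Gbp8 was then -1.40 (0.0807), Gbp9 -1.23 (0.135), Gbp11 -0.90 (0.202), Tlr3 -0.52 (0.0856), Ifngr2 0.80 (0.0703), Tor3a -0.36 (0.056) and Trim25 -0.55 (0.0705); the numbers mark no shared animal or batch in the labels.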
